A study of Homo sapiens with 6 samples.

Results

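The proteasome genes were taken as all genes whose symbols are PSMA, PSMB, PSMC, PSMD, PSME, PSMF or PSMG followed by a number. They contributed 318 of the 66395 alternative splicing (AS) events with a mean of at least 10 junction reads over the 6 libraries, and 45 of the 10147 genes with such an event. Another 20 events of these genes were under that minimum. The event with the fewest reads that entered had a mean of 14.3 reads, and the one with the most reads that did not enter had 8.83. Of 48 human genes of this kind that were listed, PSMA8, PSMB11 and PSMG3 had no event in the tables used here, and 3 A3SS events (in PSMA4, PSMA7 and PSMB3) could not be read and were left out. A gene had 1 to 23 events (median 5), and 273 of the 318 events (85.8%) shared a splice junction with another event of these genes, so that the events are not independent of each other.

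The libraries were made from NCI-H1975, an established human lung adenocarcinoma (LUAD) cell line, in a comparison that asked which AS events change when SAM68 is overexpressed. SAM68, encoded by KHDRBS1, is an RNA-binding protein that takes part in the choice of splice sites. The control group (3 libraries) received the empty PCDNA3.1 plasmid and the SAM68 group (3 libraries) received PCDNA3.1-SAM68, each at 2 µg per well with lipofectamine for 48 h. The labels give no other modification of the cells. The transfection was transient, and the share of cells that took up the plasmid is not given in the sources used here.

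The proteasome degrades proteins that carry ubiquitin chains. Its 20S core is a barrel of outer rings of alpha subunits (PSMA), which gate the entry, and inner rings of beta subunits (PSMB), some of which carry the cutting sites. In the 19S particle that caps the core, a ring of ATPases (PSMC) unfolds the substrate and non-ATPase subunits (most of PSMD) bind and remove ubiquitin. Inducible beta subunits (PSMB8, PSMB9, PSMB10) replace their constitutive counterparts in the immunoproteasome, the activators PSME1 to PSME4 open the core without ubiquitin, and PSMF1 encodes the regulator PI31. Dedicated chaperones assemble the core (PSMG genes) and the base of the cap (PSMD5, PSMD9 and PSMD10). The subunits are assembled in fixed proportions, and most are made in every cell.

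The exons that carried the main results are shown first, from the GRCh38 reference in the direction of transcription, with 20 bases of flanking sequence on each side in lower case. The first set holds the neighbouring coding exons whose junction balance differed between groups with an adjusted p under 0.05. They are exons 2 and 3 of PSMB6 on the plus strand (chr17:4796708-4796815 and chr17:4797418-4797589) and exons 4 and 5 of PSMB1 on the minus strand (chr6:170543581-170543750 and chr6:170537214-170537360). Capitals mark the exon.
PSMB6 exon 2: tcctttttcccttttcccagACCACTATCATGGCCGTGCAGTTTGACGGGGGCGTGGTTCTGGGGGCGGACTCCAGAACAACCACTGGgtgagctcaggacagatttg
PSMB6 exon 3: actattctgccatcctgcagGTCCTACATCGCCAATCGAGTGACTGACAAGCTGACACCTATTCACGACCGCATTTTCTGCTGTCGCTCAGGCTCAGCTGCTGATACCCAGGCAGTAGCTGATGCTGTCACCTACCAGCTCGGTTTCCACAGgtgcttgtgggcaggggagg
PSMB1 exon 4: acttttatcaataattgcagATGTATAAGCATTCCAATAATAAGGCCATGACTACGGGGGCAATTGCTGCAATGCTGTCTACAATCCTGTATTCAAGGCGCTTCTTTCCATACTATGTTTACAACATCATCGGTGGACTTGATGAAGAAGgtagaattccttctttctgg
PSMB1 exon 5: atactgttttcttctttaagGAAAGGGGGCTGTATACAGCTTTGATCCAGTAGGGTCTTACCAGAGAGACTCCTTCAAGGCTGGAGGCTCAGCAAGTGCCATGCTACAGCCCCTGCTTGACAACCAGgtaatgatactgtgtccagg
The exons are 68, 132, 130 and 107 nt long, and only the 132 nt of PSMB6 exon 3 are a multiple of 3.

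The second set shows cassette exons and splice sites that these cells used in both forms, chosen because a minor form could be read there at depth. PSMD13 exon 3 (35 nt, chr11:244021-244095, plus strand) and PSMG1 exon 4 (63 nt, chr21:39179904-39180006, minus strand) are coding exons that part of the transcripts left out. The additional exons of PSMG4 (117 nt, chr6:3264189-3264345, plus strand) and PSMB5 (85 nt, chr14:23027725-23027849, minus strand) are coding in reference transcripts other than the main one of the gene. In PSMD4 (chr1:151266093-151266141, plus strand) a downstream 5′ splice site adds 9 nt to the exon, and in PSMD9 (chr12:121915836-121915878, plus strand) a pair of 3′ splice sites lies 3 nt apart. Capitals mark the cassette exon or the stretch between the alternative sites.
PSMD13 exon 3: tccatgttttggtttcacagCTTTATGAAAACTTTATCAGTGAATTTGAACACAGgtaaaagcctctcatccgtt
PSMG1 exon 4: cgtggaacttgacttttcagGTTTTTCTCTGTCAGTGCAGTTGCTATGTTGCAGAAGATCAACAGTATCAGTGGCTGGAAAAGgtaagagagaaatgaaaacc
PSMG4 additional exon: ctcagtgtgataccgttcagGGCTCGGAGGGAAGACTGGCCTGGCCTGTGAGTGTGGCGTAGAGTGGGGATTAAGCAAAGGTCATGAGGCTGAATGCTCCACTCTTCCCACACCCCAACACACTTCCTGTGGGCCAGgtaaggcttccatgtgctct
PSMB5 additional exon: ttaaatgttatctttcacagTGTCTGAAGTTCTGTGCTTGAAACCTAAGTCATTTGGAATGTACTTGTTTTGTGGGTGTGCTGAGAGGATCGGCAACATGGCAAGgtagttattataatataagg
PSMD4 extended 5′ site: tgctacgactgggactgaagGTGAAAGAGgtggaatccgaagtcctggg
PSMD9 tandem 3′ site: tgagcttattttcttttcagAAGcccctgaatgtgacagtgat
The lengths of 63, 117, 9 and 3 nt are multiples of 3 and leave the reading frame of what follows, whereas 35 and 85 nt do not.

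The libraries held 16951876 to 19737729 junction reads in the skipped exon table, and 343172 to 400642 reads per library fell in the 318 proteasome events. KHDRBS1 itself was measured at 311, 328 and 316 junction reads per 1000000 (rpm) in control libraries and at 1230, 1260 and 1276 rpm in SAM68 libraries (log2 fold change 1.98, SE 0.047, adjusted p = 1.16e-21, limma), and reads of the plasmid and of the cells' own gene cannot be told apart. The epithelial keratin genes KRT8 and KRT18 (471 to 530 rpm) were read in every library, with KRT8 at 520 rpm in control library 1 and at 229 to 253 rpm in the other 5, KRT7 at only 1.26 to 4.48 rpm, and the mesenchymal gene VIM at 4029 to 4315 rpm. EPCAM, CDH1 and the lung genes NKX2-1, NAPSA and SFTPB had no event with enough reads, as had PTPRC, PECAM1 and COL1A1, and since the tables hold only genes with an AS event this gives no level for them. Libraries of one group differed by more than sampling noise (chi-square over its degrees of freedom 3.15 to 4.56 for 6 pairs), and by less than most pairs across groups (4.50 to 6.45 for 9 pairs). Libraries are numbered by their place in the list of their group.

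The proteasome transcripts were mostly spliced in 1 form. The percent spliced in (PSI) is the share of the inclusion form among the junction reads of an event, corrected for the length each form offers to reads. Of 207 skipped exon (SE) events, 183 (88.4%) had a PSI over 95%, against 65.3% of the SE events of all genes. Of 23 retained introns (RI), 20 (87.0%) had a PSI under 5%, against 73.9% in all genes, with a median of 0.243% retained against 1.20%. Among the events that are not mutually exclusive exons (MXE), 17 of 267 events (6.37%) had a PSI from 5% to 95%, against 25.6% of all such events.

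Most skipping of proteasome exons rested on few reads. The median SE event had 4 skipping reads over the 6 libraries together, and 118 events had at most 6. In 132 of the 207 SE events the skipping junction was in no reference transcript, and 130 of these had a PSI over 95% (median 99.9%). In the other 75 it was in a reference transcript, and 53 of them had a PSI over 95% (median 99.0%). The 170 distinct exons had a median length of 107.5 nt (117 nt over 38685 exons of all genes), and 40.6% were a multiple of 3 nt long, against 40.5%.

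No proteasome event passed the test between the groups. A call needed an adjusted p under 0.05 in a quasi-binomial test and a PSI difference (∆PSI, SAM68 minus control) of at least 10 points, and 0 of 318 events were called, where 18 of all 66395 events (0.0271%) were. With the adjusted p alone 2 of the 318 events passed, against 0.0979% of all events, and both were MXE events. The lowest adjusted p was 0.324 among the SE events, 0.513 among alternative 5′ splice sites (A5SS), 0.553 among alternative 3′ splice sites (A3SS) and 0.536 among retained introns. At an unadjusted p under 0.05 there were 35 events (11.0%), against 8.43% of all events. By limma on logit PSI, 0 events passed the adjusted p and 14 the unadjusted one. The PSI ranges of the 2 groups were separate in 26 events (8.18%), against 6.13% of all events. They were higher with SAM68 in 10 (3.1% of all events) and lower in 16 (3.03% of all events). A likelihood ratio test on pooled counts, which takes no account of the spread between libraries, called 1 proteasome event and 2.04% of all events.

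The differences were also small in size. The median absolute ∆PSI was 0.242 points over the 318 events and 1.24 points over all events, with a median of 703.9 reads per event and library against 111.3. An absolute ∆PSI of 1 point or more was seen in 63 events (19.8%, against 55.3% of all), of 5 points or more in 9 (2.83%, against 17.9%) and of 10 points or more in 1 (0.314%, against 7.16%). Of these 9 events, 5 had a mean under 50 reads. Among the 258 events other than MXE with at least 50 reads, the largest difference was 4.68 points, and 24 exceeded 1 point. The deeper reading of these genes and the nearness of their PSI to 0% or 100% both go with small differences, and their parts in the lower median were not tested.

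**Figure D1:**
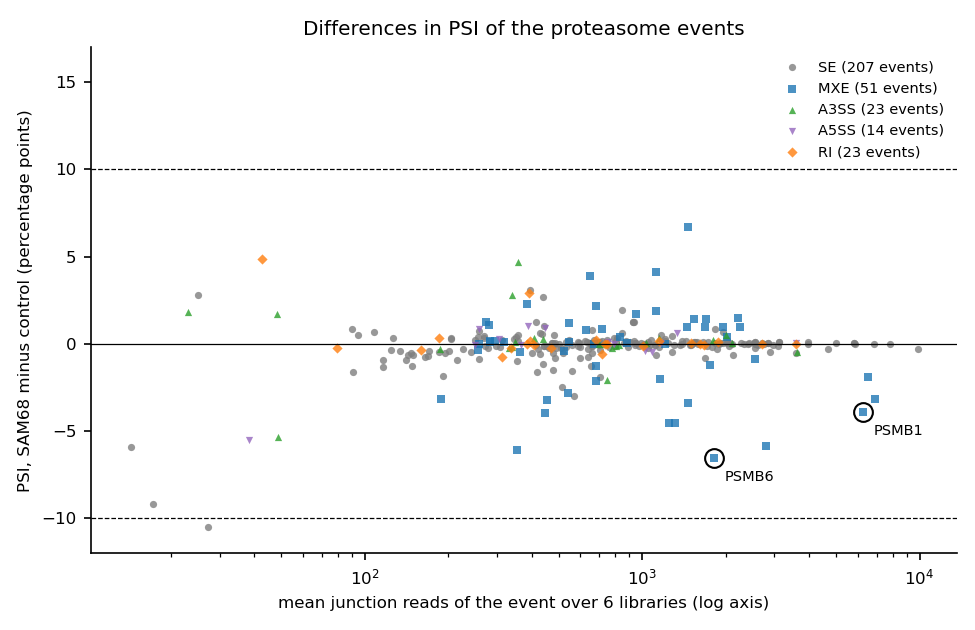
Difference in PSI between SAM68 and control libraries (points, y axis) against mean junction reads per library (log axis, x axis) for the 318 proteasome events, coloured by event type, with dashed lines at 10 points and circles at an adjusted p under 0.05. At 50 reads or more the events other than MXE stay within 4.68 points, and the wider differences at high depth are MXE events.

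Among the events other than MXE at 50 reads or more, those of the core particle with a PSI from 5% to 95% lay in PSMB5 and PSMB3 of the beta ring. PSMB5 encodes the subunit with chymotrypsin-like activity, and its additional 85 nt exon was included at 5.35%, 7.38% and 4.72% in control libraries and at 6.95%, 7.64% and 8.67% in SAM68 libraries. The groups overlapped, and the ∆PSI of 1.93 points was not past the test (adjusted p = 0.534). In PSMB3, a structural beta subunit, the event was a shortened form of exon 4 that starts at a 3′ splice site inside that exon. Its upstream junction and its skipping junction were in reference transcripts marked for nonsense-mediated decay, not in the main transcript. The full exon 4 was included at over 95% in its own SE event. The event of the shortened form had a PSI of 87.7%, 88.3% and 90.4% in control libraries. With SAM68 it was at 84.2%, 86.9% and 89.7% (∆PSI −1.88 points, adjusted p = 0.565), again with overlap. The ∆PSI ran from −3.25 points (without SAM68 library 3) to −0.531 points (without SAM68 library 1) over the libraries left out. PSMB4, a structural subunit at the end of ring assembly, skipped an exon in 0, 1 and 1 reads of the control and in 5, 6 and 10 reads of the SAM68 libraries, beside 4241 to 5353 inclusion reads in each. The groups were separate, but the difference was −0.28 points of PSI, and the adjusted p of 0.324 was the lowest of the SE events. In the alpha ring, a 5′ splice site of PSMA7 was used at 0.295%, 0.529% and 0.166% in control and at 0.803%, 0.989% and 1.06% in SAM68 libraries (∆PSI 0.62 points, adjusted p = 0.513). These events, and the others of SE, A3SS and A5SS type named here, were chosen after their values were known, except the A3SS event of PSMD13.

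In the 19S cap, PSMD13 encodes a non-ATPase subunit of the lid, and its 35 nt exon 3, shown above, was skipped in 23, 31 and 22 reads of the control and in 14, 15 and 17 reads of the SAM68 group. The same skipping reads enter a skipped exon event and an A3SS event that sets the 3′ splice site of exon 3 against that of exon 4. In the A3SS event the PSI was 88.8%, 83.8% and 89.0% in the control group and 93.6%, 90.4% and 91.5% in the SAM68 group. The means were 87.2% ± 2.94 and 91.9% ± 1.61 (SD, n = 3), and the groups did not overlap. The ∆PSI of 4.68 points was the largest of the events other than MXE at 50 reads or more, with an adjusted p of 0.67. It was 2.98 points without control library 2 and 2.72 points without effective lengths. As a skipped exon it had a PSI of 93.8%, 90.6% and 94.0% against 96.6%, 94.8% and 95.1% (∆PSI 2.71 points, adjusted p = 0.565, and 1.63 points without control library 2).

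Other cap genes held minor forms with differences of 0.44 to 2.79 points. PSMD4 encodes a ubiquitin receptor of the cap, and its 9 nt extension was used at 6.99%, 6.54% and 9.15% in control and at 6.52%, 6.51% and 8.31% in SAM68 libraries (∆PSI −0.44 points, adjusted p = 0.85). The spread within each group was wider than the difference between them, which turned to 0.352 points without control library 3. PSMC5, an ATPase of the base, used additional exons with a shared skipping junction, and the shortest of them had a PSI of 8.59%, 8.65% and 11.0% against 8.49%, 8.50% and 6.56% (∆PSI −1.56 points, adjusted p = 0.565), with a narrow gap between the groups and −1.98 to −0.768 points over the libraries left out, smallest without control library 3. In PSMD9, a chaperone of the base, the upstream of the tandem 3′ sites was used at 93.7%, 92.3% and 90.5% in control and at 95.1%, 93.1% and 96.6% in SAM68 libraries (∆PSI 2.79 points, adjusted p = 0.67).

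No event of the core chaperones and activators passed the test either. PSMG4, a partner in an early chaperone of the alpha ring, included its additional 117 nt exon at 9.62%, 7.83% and 8.38% in control and at 4.52%, 7.55% and 6.34% with SAM68. The groups were separate (∆PSI −2.47 points), and the adjusted p was 0.464. PSMG1, a subunit of another such chaperone, included exon 4 at 89.2%, 92.5% and 94.6% in the control and at 95.3%, 92.4% and 91.7% with SAM68, and the groups overlapped (∆PSI 1.03 points, adjusted p = 0.644). The difference turned to −0.416 points without control library 1 and was close to 0 without SAM68 library 1. PSME2 encodes a subunit of the interferon-inducible activator, and a 3′ site that lengthens one of its exons by 124 nt was used at 4.38%, 6.01% and 3.89% in control and at 3.85%, 1.82% and 2.37% with SAM68 (∆PSI −2.08 points, adjusted p = 0.553). An MXE event of PSME2 that shares a junction with it had a PSI of 11.0%, 12.9% and 9.12% against 8.51%, 2.26% and 4.12% (∆PSI −6.05 points, adjusted p = 0.228). In both events SAM68 libraries 2 and 3 were low, and library 1 was close to the control range.

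**Figure D2:**
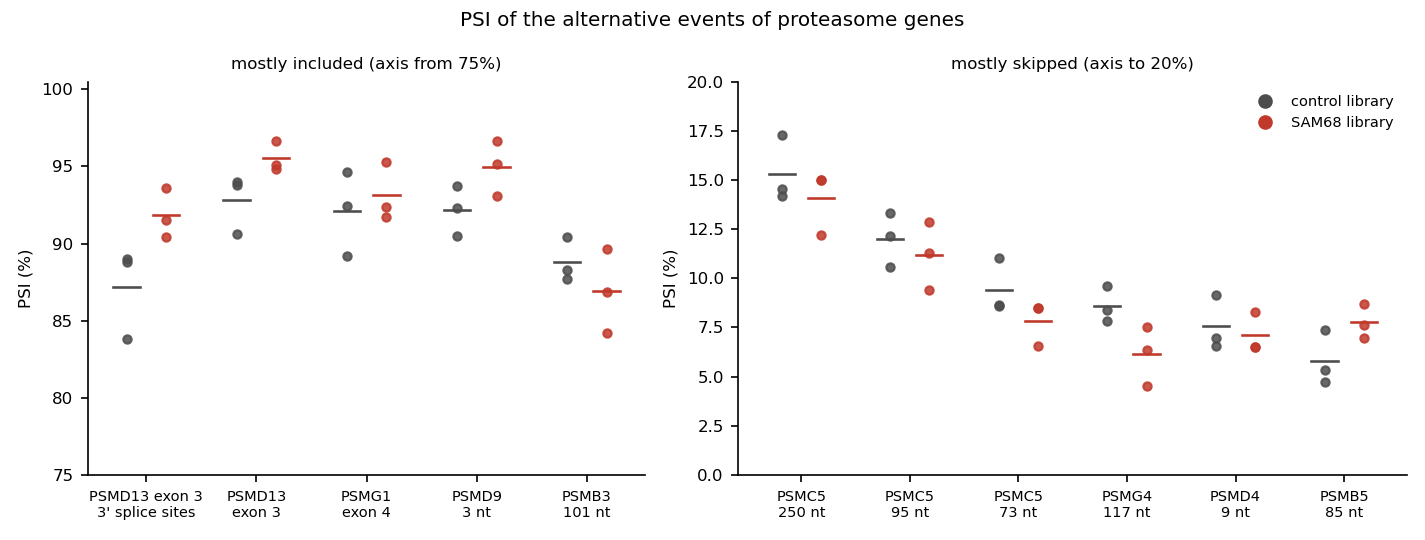
PSI (percent) in each of the 3 control and 3 SAM68 libraries for the 11 proteasome events other than MXE with a PSI from 5% to 95% and at least 50 reads, named by gene and length. Points are libraries, short lines are group means, and the axes run from 75% (left) and to 20% (right). The groups of PSMD13 and PSMG4 and, by a narrow gap, of the shortest PSMC5 exon are separate, and none of the events passed the adjusted test.

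The only difference of 10 points or more came from 1 library. A skipped exon event of PSMB1 with a mean of 27.3 reads had 18, 23 and 20 inclusion reads and no skipping read in the control group, and 39, 34 and 19 inclusion reads with SAM68. SAM68 library 1 held 11 skipping reads and the other two held none, so that its PSI was 68.6% and that of every other library 100%. The ∆PSI was −10.5 points (adjusted p = 0.54), and without that library it was 0. No junction of this event, of either form, was in a reference transcript. Its PSI therefore does not give the inclusion of PSMB1 exon 3 in the main transcript.

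In an MXE event, the PSI is the share of junctions of the exon nearer the 5′ end among those of both exons. In proteasome genes most MXE events were not alternatives between exons. Of 51 MXE events, 39 (76.5%, against 66.9% of all MXE events) paired consecutive exons of the main transcript, in 23 genes. For 35 of these pairs both exons also had SE events, and in 35 of 35 both were included at over 95% (lowest 95.3%). In 19 pairs a junction of each form was in no reference transcript. Their PSI ran from 0.0956% to 76.5% with a median of 50.3%. For the 35 pairs it therefore gives a balance of junction reads between neighbouring exons that are both included at over 95%. In the other 4, which include exons 3 and 4 of PSMC5, 1 of the exons had no SE event, so its inclusion was not measured. The ∆PSI of the pairs ran from −6.56 to 6.67 points, with a median of 0.023 points, and 19 of 39 were below 0, against a median of −0.250 points and 53.7% in all such pairs. The groups were separate and lower with SAM68 in 7 of the 39 pairs (7.02% of all such pairs) and separate and higher in 2 (5.76%). An unadjusted p under 0.05 was reached in 9 (8.88% of all such pairs), of which 7 were lower with SAM68 (4.91%). The median PSI of the 39 pairs was 50.8%, 48.9% and 48.6% in control libraries and 49.2%, 50.1% and 48.2% in SAM68 libraries.

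The 2 proteasome events with an adjusted p under 0.05 were pairs of this kind in the beta ring. PSMB6 encodes the subunit with caspase-like activity. The balance of its exons 2 and 3, shown above, was 20.3%, 20.9% and 22.2% in control libraries and 14.7%, 16.5% and 12.5% in SAM68 libraries. All 3 SAM68 libraries were below all 3 controls. The means were 21.1% ± 0.966 and 14.6% ± 2.00 (SD, n = 3), with a ∆PSI of −6.56 points and an adjusted p of 0.00556. Each exon was included at 99.9% in its own SE event. The inclusion reads of the skipped exon events had a log2 fold change of −0.29 for exon 2 (259 rpm in control against 213 rpm with SAM68), 0.05 for exon 3 (451 rpm against 468 rpm) and −0.19 for exon 5 (343 rpm against 302 rpm). For exons 2 and 5 all SAM68 libraries were below the controls.

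PSMB1 encodes a structural beta subunit and was the proteasome gene with the most reads per length. The balance of its exons 4 and 5 was 42.8%, 42.5% and 44.4% in control libraries and 39.4%, 40.3% and 38.1% in SAM68 libraries. The groups were again separate, with means of 43.2% ± 1.01 and 39.3% ± 1.12 (SD, n = 3), a ∆PSI of −3.93 points and an adjusted p of 0.0109. The log2 fold change of exon reads was −0.06 for exon 4 (866 rpm against 829 rpm) and 0.08 for exon 5 (960 rpm against 1012 rpm). Neither difference reached 10 points. Both lost the adjusted p without any 1 library (adjusted p from 0.391 to 0.723 for PSMB6 and from 0.47 to 0.723 for PSMB1), by limma on logit PSI (0.812 and 0.817), with dispersions left unmoderated (0.863 for both) and without the minimum of reads (0.262 and 0.266). The sizes stayed between −7.52 and −5.52 points and between −4.45 and −3.33 points over the libraries left out, and the adjusted p stayed under 0.05 over all event types together (0.0252 and 0.0441) and with robust moderation (0.00165 and 0.0041).

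The next pairs by p did not pass. In PSMC5, the balance of exons 3 and 4 was 43.4%, 49.0% and 48.6% against 52.5%, 54.8% and 53.8% (∆PSI 6.67 points, adjusted p = 0.077). In PSMD8, a non-ATPase of the lid, that of exons 3 and 4 was 47.5%, 46.5% and 47.2% against 42.9%, 46.2% and 42.7% (∆PSI −3.13 points, adjusted p = 0.083). In PSMB7, the subunit with trypsin-like activity, that of exons 5 and 6 was 57.3%, 52.8% and 54.1% against 51.8%, 50.6% and 44.2% (∆PSI −5.85 points, adjusted p = 0.101), or −3.51 points without SAM68 library 3. All 3 had separate groups, and PSMC5 went the other way from the rest. With robust moderation of the dispersion PSMC5 and PSMD8 had an adjusted p of 0.0475 each and PSMB7 of 0.339.

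The 20 deepest events with a PSI from 5% to 95%, with each alternative exon taken at its deepest event, were all MXE events. They lay in 14 genes, and 19 of them were consecutive pairs. They had a mean of 1165 to 6925 reads, and their ∆PSI ran from −6.56 to 6.67 points with a median of −1.04 points and 11 below 0. In the alpha ring, both pairs of PSMA5 were at −4.51 points (adjusted p = 0.419 and 0.422), and at −2.88 and −2.11 points without SAM68 library 3. PSMD14, the deubiquitinase of the lid, had its deepest pair at 1.396 points (adjusted p = 0.818), and PSMB2, a structural beta subunit, at 0.98 points (adjusted p = 0.853). In PSMA6, an alpha subunit, exons 4 and 5 were at −3.37 points (adjusted p = 0.553, −2.24 points without SAM68 library 2), exons 2 and 3 at −2.01 and exons 3 and 4 at 0.96. Pairs of PSMB3 (0.98), PSMC1 (−0.85), PSMC3 (−1.22), PSMA4 (0.38), PSMD4 (1.42 and 0.94) and exons 4 and 5 of PSMC5 (1.47) all had an adjusted p of 0.775 or more. Exons 2 and 4 of PSMD8, the event that is no consecutive pair, were at −1.90 points (adjusted p = 0.467).

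The number of junction reads per gene gives a level only for the event read most deeply in that gene. Divided by the length open to reads (rpm per 1000 bases), the levels of the 45 genes ran from 108 to 7087 with a median of 888, a range of 65.5-fold. In these bulk libraries, fewer cells with a transcript and less of it per cell cannot be told apart. The order began with PSMB1 (7087), PSMD8 (5139), PSMB7 (4373), PSMB4 (3054) and PSMC4 (2780). Each of these was separate from the next in the order over all 6 libraries, as was PSMB8 (243) from PSME4 (141), and the other 38 of 44 neighbouring genes overlapped.

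Within the core, alpha subunits ran from 574 (PSMA1) to 1588 (PSMA7) and constitutive beta subunits from 1672 (PSMB5) to 7087 (PSMB1). Inducible beta subunits ran from 108 (PSMB9) to 264 (PSMB10). In the cap, ATPases ran from 382 (PSMC6) to 2780 (PSMC4), non-ATPases from 434 (PSMD11) to 5139 (PSMD8) and base chaperones from 327 (PSMD10) to 534 (PSMD9). Activators ran from 141 (PSME4) to 838 (PSME2), core chaperones from 284 (PSMG2) to 740 (PSMG4), and PSMF1 was at 812. The SD within a group was 4.47% of the mean for the median gene and at most 31.4%.

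**Figure D3:**
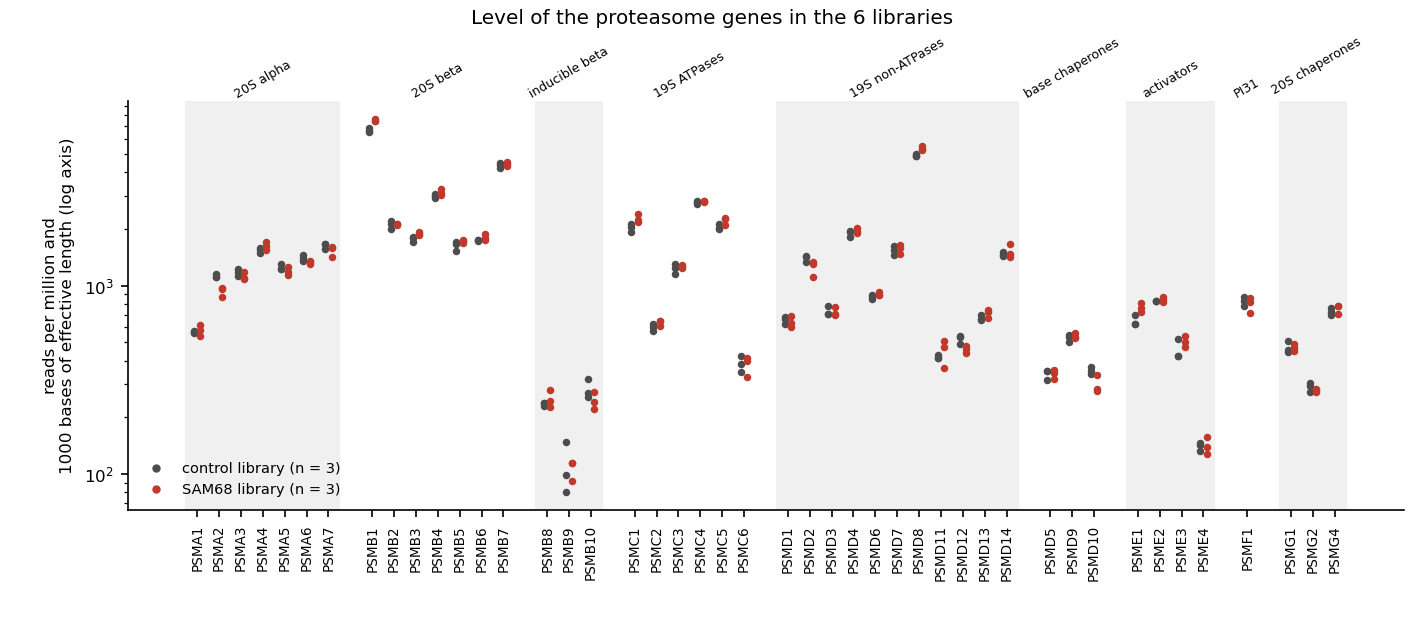
Junction reads as rpm per 1000 bases (log axis) of the 45 proteasome genes in each library, by structural group, with control libraries in grey and SAM68 libraries in red. PSMB9 lies lowest (108) and PSMB1 (7087) and PSMD8 (5139) highest.

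No proteasome gene was called between the groups. A call needed an adjusted p under 0.05 by limma and at least a 2-fold change in reads, and 0 of 45 genes were called, where 0.0493% of all 10147 genes were. With the adjusted p alone 2 of 45 passed, against 0.414%, and 9 passed the unadjusted p under 0.05 (20%), against 12.1%. The log2 fold changes ran from −0.27 to 0.23. They were above 0 in 29 genes and below 0 in 16 (64.4% above 0, against 43.0% of all genes), with a median of 0.027 against −0.035. Scaled by median ratios, 34 were above 0 (75.6%, against 49.4% of all genes), and read from the event with the next most reads 20 were (44.4%, against 43.5%). The groups were separate in 11 genes, against 16.8% of all genes. They were higher in 6 (6.04% of all genes) and lower in 5 (10.8% of all genes).

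PSMA2, an alpha subunit, had 288.4, 289.8 and 299.4 rpm in control and 252.6, 249.4 and 226.2 rpm in SAM68 libraries. Every SAM68 library was below every control, with a log2 fold change of −0.27 (SE 0.061, adjusted p = 0.0439). PSMB1 had 1551, 1619 and 1566 rpm in the control and 1767, 1752 and 1798 rpm with SAM68, and here all SAM68 libraries were above the controls (log2 fold change 0.17, SE 0.038, adjusted p = 0.0465). Read from the event with the next most reads, PSMA2 was at −0.19 (adjusted p = 0.353) and PSMB1 at 0.06 (adjusted p = 0.634). Both kept their direction at a smaller size, and neither kept the adjusted p under 0.05. With the libraries scaled by median ratios, PSMA2 had an adjusted p of 0.104 and PSMB1 of 0.0281. Over the libraries left out in turn, the adjusted p ran from 0.0277 to 0.196 for PSMA2 and from 0.0311 to 0.266 for PSMB1.

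By structural group, no group held a called gene, and no direction of a group held in every gene under every setting. The constitutive beta genes were above 0 in 7 of 7 (median log2 fold change 0.06), and also in 7 when scaled by median ratios (median 0.093). They were 6 of 7 without control library 2 or 3 and when read from the event with the next most reads, and their median was 0.03 without SAM68 library 1. Alpha genes were below 0 in 5 of 7 (median −0.08, or −0.046 with median ratios), in 6 without SAM68 library 3 and in 7 on the next event. ATPases were above 0 in 5 of 6 (median 0.06) and in 4 to 6 with single libraries left out. They were above 0 in 6 with median ratios (median 0.088), but in 1 of 6 on the next event (median −0.11). Non-ATPases were above 0 in 7 of 11 (median 0.04), in 9 with median ratios (median 0.077) and in 5 on the next event (median −0.037). Their median was 0.021 without control library 2 and 0.0098 without SAM68 library 3. Activators were above 0 in 3 of 4 (median 0.09), or 4 of 4 with median ratios and without control library 1 or 2 or SAM68 library 1. Their median was 0.12 with median ratios and 0.14 without SAM68 library 1. In the groups of 3 genes the count above 0 turned with single libraries. It was 2 for the inducible beta genes, but 1 without control library 1 or 2 or SAM68 library 1 or 2. It was 2 for the core chaperones, but 1 without control library 1 or 3 or SAM68 library 3 and on the next event. It was 1 for the base chaperones, but 2 without control library 1 or 2 or SAM68 library 2 and with median ratios.

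In each other group, the gene with the smallest p had a log2 fold change between −0.25 and 0.23. PSME1, a subunit of the same activator as PSME2, had 120.5, 119.3 and 134.3 rpm in the control and 138.9, 146.6 and 154.8 rpm with SAM68 (0.23, adjusted p = 0.181). The groups were separate, as they were for PSMC1, an ATPase (0.15, adjusted p = 0.234), PSMD8 (0.12, adjusted p = 0.174) and PSMD10, a base chaperone also known as gankyrin (−0.25, adjusted p = 0.265). For PSMC1 and PSMD8 the direction turned on the event with the next most reads (−0.20 and −0.082). The groups overlapped for PSMB10 (−0.20, adjusted p = 0.461), PSMF1 (−0.05, adjusted p = 0.819) and PSMG4 (0.04, adjusted p = 0.866). For PSMB10, control library 1 (83.4 rpm) lay above all other libraries (57.9 to 70.6 rpm).

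**Figure D4:**
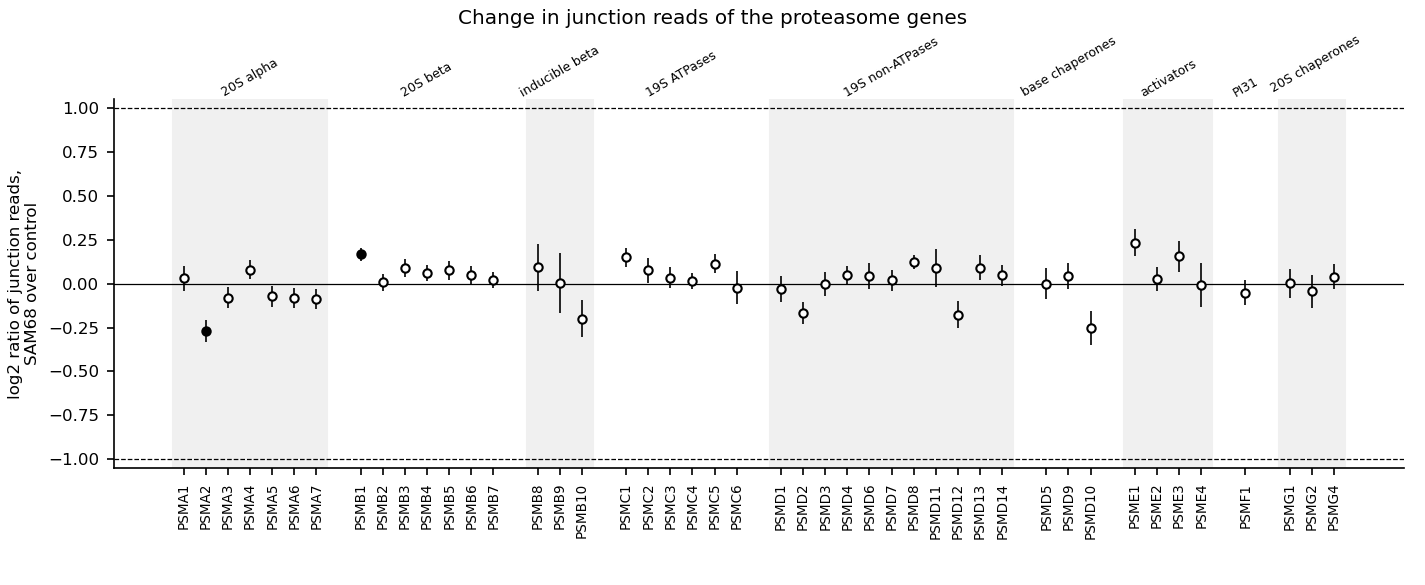
Log2 fold change (SAM68 over control, y axis) of junction reads for the 45 proteasome genes by structural group (x axis), with error bars of 1 SE, filled points for an adjusted p under 0.05 and dashed lines at 2-fold. All lie between −0.27 and 0.23, inside the 2-fold limit.

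Of 23 other genes of the ubiquitin-proteasome pathway that were listed (UBQLN2 had no event), 22 were tested, 0 were called, 0 passed the adjusted p and 3 the unadjusted p under 0.05 (12.1% of all genes did). The 3 were USP14, a deubiquitinase bound to the cap (log2 fold change 0.26), SEM1, a small lid subunit whose symbol lies outside the rule (−0.16), and VCP, an ATPase that extracts ubiquitinated proteins (−0.12). For VCP the groups overlapped, and SAM68 library 3 was lowest (336 rpm, against 368 to 417 rpm in the other libraries). In all, 10 were above and 12 below 0 (median −0.032). Of their 166 events, 0 were called, 0 passed the adjusted p and 21 passed the unadjusted one, which 8.43% of all events did.

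The exons were also searched for the letters TAAA or TTAA on the transcribed strand, short A- and U-rich strings of the kind SAM68 is known to bind as RNA. The letters were in 57.6% of the 100 nt windows before the 170 proteasome exons, in 43.5% of the exons and in 55.9% of the 100 nt windows after them. The shares for all 38685 exons were 55.2%, 40.1% and 54.2%. Of the printed exons, PSMD13 exon 3, PSMB1 exon 5 and the additional exons of PSMB5 and PSMG4 hold such a string in the printed stretch, and PSMB6 exons 2 and 3, PSMB1 exon 4 and PSMG1 exon 4 do not. A match is a string of letters, and binding was not measured here.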

How the data were processed

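RNA from 3 control and 3 SAM68 libraries of NCI-H1975 cells was sequenced for the authors by a company as paired-end reads, and the reads were filtered, aligned to GRCh38 and passed to rMATS. The submitters' processing notes name CASAVA 1.4, fastp 0.20.0 and HISAT2 2.1.0. The deposited tables hold, for 78336 events, lists of 3 raw junction read counts per form and group, with effective lengths. They also hold the authors' p-values, FDR, inclusion levels and level differences. The p-values, FDR and differences were not used, and inclusion levels served only to read the lists. In 275 A3SS events the digits of the lists were regrouped, as a spreadsheet can do. Of these events, 162 were recovered and 113 left out. Another 679 A3SS events that allow a different reading were taken as printed. Among the proteasome A3SS events, with no minimum of reads, 6 were recovered. Another 9 of them allow a different reading and were taken as printed.

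The first list was taken as control, since the study writes the comparison in this order and its plot of PKM gives the levels of that list to the control libraries. The lists print no replicate numbers. The study's methods call them biological replicates, without saying whether they were separate cultures of the line. The p-values set the group difference against the variation between these libraries, pooled in part over events of a type or over genes.

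PSI was tested in a quasi-binomial model with dispersions moderated within event type by squeezeVar of limma 3.58.1 in R 4.3.3 (never below 1) and adjusted by Benjamini-Hochberg within type. Each gene was measured by its most deeply read event, and log2 (rpm + 0.5) was tested with limma (eBayes, trend), so fold changes of low genes are understated. The planned count tests for genes were not used, because list-valued cells were not taken as count columns. Both tests were tested on simulated data first. Exon numbers are those of GENCODE 44.

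Genes, events and lists were chosen with earlier results of these data known. By the naming rule, the text names called events and the deepest events with a PSI from 5% to 95% (at most 20). Each alternative exon of a gene entered at its deepest event. The rule also names the 5 largest differences at 50 reads or more (1 per gene), called genes and KHDRBS1. In each structural group it names the genes of smallest p, highest and lowest level. Other names were picked with their values known.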

Additional observations from a re-analysis of the deposited data

How the results depend on the processing

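The counts of called proteasome events and genes stayed at 0 under most settings, including each library left out. The exceptions were 1 event by the likelihood ratio test, 2 events and 2 genes with no limit on size, and 1 event with a limit of 5 points. Over all genes, 18 events were called, against 2 with unmoderated dispersions, 4 with limma, 3 without a minimum of reads, 41 and 65 with a limit of 5 points or none, 1354 by the likelihood ratio test, and 2 to 3 without a library. Median ratio scaling moved the median of all genes from −0.035 to −0.0027.

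Without single libraries the pairs of PSMC1 ran from −2.26 to 0.14 points (turned without control replicate 2), of PSMA4 from −1.48 to 2.17 (without control replicate 1 or SAM68 replicate 2) and of PSMC3 from −3.41 to 0.53 (without control replicate 1), and PSMF1 reads from −0.109 to 0.0247 (turned without SAM68 replicate 1). PSMA4 was at −0.49 without control replicate 1. Exon 4 of PSMG1 and the 5′ site of PSMD4 turned to −0.416 and 0.352 points without control replicate 1 and 3. Other small pairs named (in PSMA6, PSMB2, PSMB3, PSMC5, PSMD14, PSMD4 and PSMD8) also moved by over 1.5 times without single libraries, with no change of direction. With the next deepest event the log2 fold changes of PSMC1 (−0.20), PSMD8 (−0.082), PSMG4 (−0.23) and PSMF1 (0.0048) turned. The cause was not tested. The median of the 39 pairs ran from −0.389 to 0.373 points without single libraries. Of the other values for single events and genes, 497 kept their direction and stayed uncalled with the size limit in force, and 5 (in PSMB1, PSMB6 and PSMA2) were called where that limit was lifted or lowered. Uncalled values include those whose adjusted p alone crossed 0.05.

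Not run were the planned edgeR and DESeq2 tests and their scalings, since list-valued cells were not taken as count columns, and a sum with each junction once, since the tables give no single junctions. Sums as deposited were added after seeing the data, as were median ratio scaling and the median of the pairs. No paired analysis was possible because the lists carry no replicate numbers, so that replicate here means the place in a list. Reads limit rare forms: 118 of 207 skipped exon events had at most 6 skipping reads in all.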
